A study of Mus musculus with 10 samples.

Results

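The shift between 48 and 60 h was measured in mouse dendritic cells kept with LPS and thapsigargin, on 4 of the 10 single-colour arrays of the series. At 60 h and again at 48 h there was 1 array of CD14-deficient cells (strain Cd14-/- C57BL/6) and 1 array of wild-type cells (strain C57BL/6). All 4 cultures received smooth LPS at 1 µg/ml together with 50 nM thapsigargin. Each 60 h array was set against the 48 h array of its own genotype, and a gene was taken as a member when both genotypes moved the same way. Of 7474 genes bright enough to test, 5393 (72.2%) did so. The other 6 arrays were 4 cultures of the same genotypes with LPS alone at 60 or 48 h and 2 unstimulated cultures harvested at 24 h. The cells were grown for 7 to 10 days from the marrow of mice aged 6 to 8 weeks, with medium from tumour cells that secrete GM-CSF, and were used when more than 90% carried CD11c. No condition was repeated, no arm had thapsigargin alone, and the labels do not say whether the cultures of a genotype came from separate mice.

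Thapsigargin stops SERCA, the pump that returns calcium to the endoplasmic reticulum (ER), so that calcium leaks out of the ER and rises in the cytosol. Cytosolic calcium activates the phosphatase calcineurin, which lets NFAT transcription factors enter the nucleus, while an ER short of calcium folds proteins poorly and starts the unfolded protein response. LPS, a bacterial cell wall lipid, is sensed through CD14 and TLR4 and turns immature dendritic cells into mature, cytokine-secreting cells that later die. The series was designed to find apoptosis genes under NFAT control.

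Values are MAS5 signals, scaled so that all arrays had the same trimmed mean. A log2 shift is log2 of the 60 h signal minus log2 of the 48 h signal, with signals under a floor of 13.4 set to the floor. Before scaling, the median signal was 110.9 (CD14-deficient) and 108.8 (wild type) at 60 h, against 84.29 (CD14-deficient) and 81.21 (wild type) at 48 h. After scaling, the tested genes were put in 5 classes of equal size by mean signal. Genes of the dimmest class had a median shift of 0.16 in CD14-deficient cells and 0.176 in wild-type cells. Genes of the brightest class had −0.0608 in CD14-deficient cells and −0.0603 in wild-type cells. The plot of shifts by brightness shows this gradient, whose part in the results below was not tested. RNA integrity numbers were 8.4 (CD14-deficient) and 10 (wild type) at 60 h, and 9.2 (CD14-deficient) and 9 (wild type) at 48 h. A control probe set for 18S ribosomal RNA was at 3511 (CD14-deficient) and 2393 (wild type) at 60 h, against 5260 (CD14-deficient) and 3954 (wild type) at 48 h, and its part in the shifts was not tested. The genotype labels held, with Cd14 signals of 1.85 at 60 h and 2.22 at 48 h in CD14-deficient cells, and of 15538 at 60 h and 17729 at 48 h in wild-type cells. Itgax, which encodes CD11c, was at 750.4 at 60 h and 982.5 at 48 h in CD14-deficient cells and at 776 at 60 h and 1017 at 48 h in wild-type cells, against 7838 in unstimulated CD14-deficient cells and 7440 in unstimulated wild-type cells. Of 12 T and NK cell markers, 9 had a usable probe set on the array, and 0 of these were bright enough to test.

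**Figure D1:**
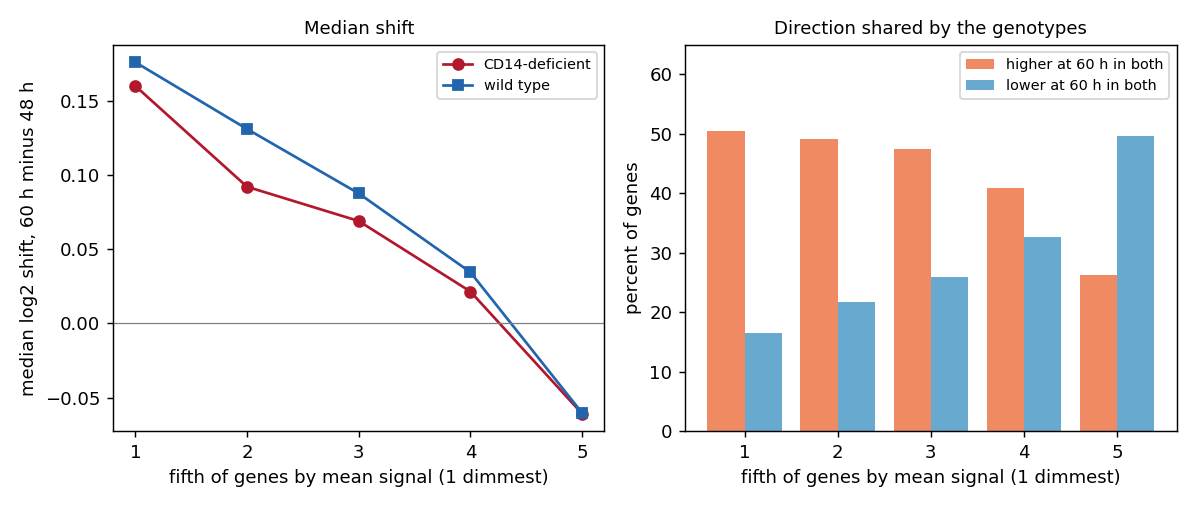
Left, median log2 shift (60 h minus 48 h, LPS plus thapsigargin) for 5 classes of the 7474 tested genes ordered by mean signal over the 10 arrays, dimmest at 1, with 1 line per genotype. Right, the percentage of genes in each class that were higher (left bars) or lower (right bars) at 60 h in both genotypes. The share higher in both was 50.4% in the dimmest class and 26.2% in the brightest, and the share lower in both was 16.5% in the dimmest and 49.6% in the brightest.

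Between 48 and 60 h with thapsigargin, the chemokine gene Ccl20, the growth factor gene Bmp2, the transcription factor gene Sox4 and the skin barrier gene Sprr2d had the largest increases shared by both genotypes. The carbonic anhydrase gene Car4, the fatty acid carrier gene Fabp3 and the surface protein gene Plet1 had the largest shared decreases. Of the 7474 genes, 3201 (42.8%) were higher and 2192 (29.3%) lower at 60 h in both genotypes. At a shift of at least 1.5-fold in each genotype the counts were 227 higher (3.04%) and 61 lower (0.816%). At 2-fold they were 27 higher (0.361%) and 9 lower (0.12%), and Rtn1 was 2-fold apart in opposite directions, with shifts of −1.02 in CD14-deficient cells and 1.27 in wild-type cells. Quantile normalization gave 18 higher and 16 lower at 2-fold, and the signals without scaling gave 104 and 1, with all genes then shifted by a median of 0.27 in CD14-deficient cells and 0.34 in wild-type cells. The 36 genes 2-fold apart in both are 19% of the 189 that were 2-fold apart in CD14-deficient cells and 31.3% of the 115 in wild-type cells. Across genes the shifts of the genotypes had a Pearson correlation of 0.578 over 7474 genes, which share the same 4 arrays and are not independent.

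**Figure D2:**
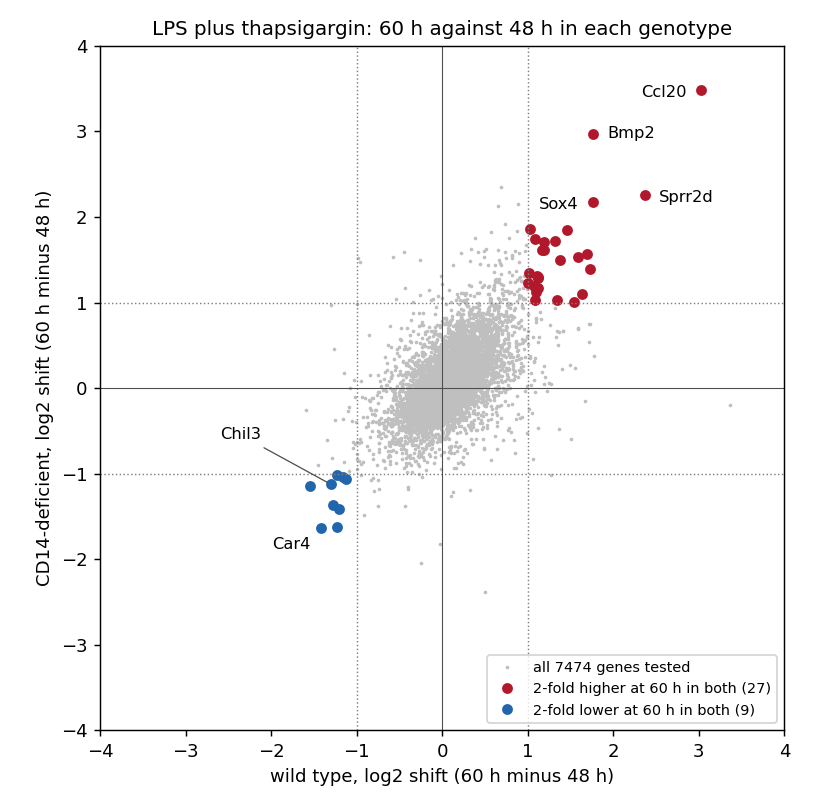
Each point is 1 of 7474 genes, with its log2 shift (60 h minus 48 h, LPS plus thapsigargin) in wild-type cells on the x axis and in CD14-deficient cells on the y axis. The 27 genes at least 2-fold higher in both lie at the upper right with Ccl20 the farthest out, and the 9 at least 2-fold lower in both lie at the lower left.

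Only 2 of 7474 genes (0.0268%) passed limma at a Benjamini-Hochberg adjusted p under 0.05, 1 in each direction: Ccl20 and Chil3. Ccl20 was bright enough to test only through its 60 h arrays with thapsigargin, so its call is not independent of how it was chosen for testing. With 1 array per condition, the test has 1 residual degree of freedom and measures how far the genotypes disagree about the shift, not the spread between cultures or mice. The adjusted p-values lay close together, with 290 genes under 0.06. At an unadjusted p under 0.05, 1337 genes were higher (17.9%) and 891 lower (11.9%). The number called moved between 0 and 2872 with the processing, so the shifts below are given mainly as values in each genotype.

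Ccl20, the chemokine that draws CCR6-bearing immature dendritic cells and lymphocytes, had a signal of 169.7 at 60 h against 15.2 at 48 h in CD14-deficient cells, and 109 at 60 h against 8.44 at 48 h in wild-type cells. Both 60 h arrays lay above both 48 h arrays, and wild-type cells at 48 h were under the floor. The gene rose 11.2-fold in CD14-deficient cells and at least 8.13-fold in wild-type cells, a mean log2 shift of 3.25 ± 0.20 (SE, limma adjusted p = 0.0498). These fitted values take the wild-type 48 h signal as the floor, and a pseudocount of 32 in place of the floor gave a mean shift of 1.95. Across the 6 arrays without thapsigargin its signal ran from 1.08 to 4.22, under the floor on each. Only the 60 h arrays with thapsigargin exceeded the pooled median, the limit for testing a gene. Ccl20 was therefore tested only because it was high at 60 h, and its p-value takes no account of this.

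Chil3, a chitinase-like protein secreted by alternatively activated mouse macrophages, had a signal of 3529 at 60 h against 7686 at 48 h in CD14-deficient cells, and 1611 at 60 h against 3985 at 48 h in wild-type cells. Neither 60 h array reached the lower of the 48 h arrays, that of wild-type cells. The gene fell 2.18-fold in CD14-deficient cells and 2.47-fold in wild-type cells, a mean log2 shift of −1.21 ± 0.073 (SE, limma adjusted p = 0.0498). With LPS alone its shift was 0.94 in CD14-deficient cells and −0.75 in wild-type cells.

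Among secreted proteins, Bmp2, a growth factor of the TGF-beta family, had a signal of 176 at 60 h against 22.5 at 48 h in CD14-deficient cells, and 334 at 60 h against 98.7 at 48 h in wild-type cells. Its 60 h signals were above both 48 h signals, and its log2 shift was 2.97 in CD14-deficient cells and 1.76 in wild-type cells. Csf3, the granulocyte growth factor, had 726 at 60 h against 362 at 48 h in CD14-deficient cells, and 3995 at 60 h against 1379 at 48 h in wild-type cells. Here the genotypes differed more than the times, and CD14-deficient cells at 60 h were below wild-type cells at 48 h. Its log2 shift was 1.00 in CD14-deficient cells and 1.53 in wild-type cells, the smallest among the 27 genes in CD14-deficient cells.

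Both metalloproteases of the 27 were secreted collagen or matrix enzymes. Mmp10, stromelysin 2, had 286 at 60 h against 79.1 at 48 h in CD14-deficient cells, and 472 at 60 h against 172 at 48 h in wild-type cells. Mmp8, the collagenase first known from neutrophils, had 1847 at 60 h against 602 at 48 h in CD14-deficient cells, and 3999 at 60 h against 1759 at 48 h in wild-type cells. For each, both 60 h arrays were above both 48 h arrays, and wild-type cells were brighter at either time. Log2 shifts were 1.85 in CD14-deficient cells and 1.46 in wild-type cells for Mmp10, and 1.62 in CD14-deficient cells and 1.18 in wild-type cells for Mmp8. Mmp8 is also 1 of 6 neutrophil markers tested, of which 1 was higher and 2 were lower in both genotypes. Those lower were Lcn2 and Camp, with log2 shifts of −0.66 in CD14-deficient cells and −0.16 in wild-type cells for Lcn2, and −0.79 in CD14-deficient cells and −0.38 in wild-type cells for Camp. Thbd, or thrombomodulin, the cofactor through which thrombin activates protein C, had 279 at 60 h against 96.5 at 48 h in CD14-deficient cells, and 344 at 60 h against 115 at 48 h in wild-type cells. Its times did not overlap, with log2 shifts of 1.53 in CD14-deficient cells and 1.58 in wild-type cells.

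4 transcription factors were among the 27. Sox4, an HMG-box factor, had 649 at 60 h against 143 at 48 h in CD14-deficient cells, and 688 at 60 h against 203 at 48 h in wild-type cells. Mycn, a member of the Myc family, had 478 at 60 h against 183 at 48 h in CD14-deficient cells, and 323 at 60 h against 97.4 at 48 h in wild-type cells. For each of them, both 60 h arrays were above both 48 h arrays. Log2 shifts were 2.18 in CD14-deficient cells and 1.76 in wild-type cells for Sox4, and 1.39 in CD14-deficient cells and 1.73 in wild-type cells for Mycn. Runx1, a master factor of blood cell formation, had shifts of 1.35 in CD14-deficient cells and 1.02 in wild-type cells. Zbtb14, a zinc finger factor, had shifts of 1.03 in CD14-deficient cells and 1.34 in wild-type cells.

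Some of the 27 encode phosphatases and a phosphodiesterase. Dusp6, the phosphatase that switches off ERK kinases, had a signal of 582 at 60 h against 177 at 48 h in CD14-deficient cells, and 1088 at 60 h against 437 at 48 h in wild-type cells. The times did not overlap, and its log2 shift was 1.72 in CD14-deficient cells and 1.32 in wild-type cells. Ptpn22, a tyrosine phosphatase that dampens antigen receptor signalling, had 434 at 60 h against 142 at 48 h in CD14-deficient cells, and 347 at 60 h against 154 at 48 h in wild-type cells. Here too both 60 h signals were above both at 48 h, with shifts of 1.61 in CD14-deficient cells and 1.17 in wild-type cells. Ptpn21, another tyrosine phosphatase, had shifts of 1.17 in CD14-deficient cells and 1.12 in wild-type cells. Pde7b, which breaks down cyclic AMP, had shifts of 1.70 in CD14-deficient cells and 1.19 in wild-type cells.

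Cav1 and Cav2 are the partner proteins of caveolae, the flask-shaped pits of the cell membrane. Cav1 had 502 at 60 h against 202 at 48 h in CD14-deficient cells, and 678 at 60 h against 314 at 48 h in wild-type cells. Cav2 had 757 at 60 h against 347 at 48 h in CD14-deficient cells, and 952 at 60 h against 446 at 48 h in wild-type cells. The times did not overlap for either, and log2 shifts were 1.31 in CD14-deficient cells and 1.11 in wild-type cells for Cav1, and 1.13 in CD14-deficient cells and 1.09 in wild-type cells for Cav2. Of the enzymes that build O-linked glycans, Galnt7, which adds the first sugars, had shifts of 1.29 in CD14-deficient cells and 1.12 in wild-type cells. Gcnt1, which makes the core 2 branch, had shifts of 1.28 in CD14-deficient cells and 1.12 in wild-type cells.

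Sprr2d, a small proline-rich protein known from the skin barrier, had 119 at 60 h against 24.8 at 48 h in CD14-deficient cells, and 365 at 60 h against 70.9 at 48 h in wild-type cells. Both 60 h arrays were above both 48 h arrays, with log2 shifts of 2.26 in CD14-deficient cells and 2.36 in wild-type cells. Cyp1b1, a cytochrome P450 induced by the aryl hydrocarbon receptor, had shifts of 1.75 in CD14-deficient cells and 1.08 in wild-type cells. Phlda1 had 1.03 in CD14-deficient cells and 1.08 in wild-type cells, Gask1b 1.23 in CD14-deficient cells and 1.01 in wild-type cells, and Sfpq, a splicing factor, 1.86 in CD14-deficient cells and 1.02 in wild-type cells. Gtse1, a protein of the G2 and mitotic phases, had 1.19 in CD14-deficient cells and 1.07 in wild-type cells. Iglv1, a variable segment of immunoglobulin light chains, had 89.3 at 60 h against 30.03 at 48 h in CD14-deficient cells, and 43.3 at 60 h against 8.01, under the floor, at 48 h in wild-type cells. Sgo1, which protects the cohesion of sister chromatids, and Pcdh7, a protocadherin, were under the floor on both 48 h arrays. Sgo1 was thus at least 2.81-fold higher at 60 h in CD14-deficient cells and at least 2.59-fold higher in wild-type cells. Pcdh7 was at least 2.14-fold higher at 60 h in CD14-deficient cells and at least 3.11-fold higher in wild-type cells.

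**Figure D3:**
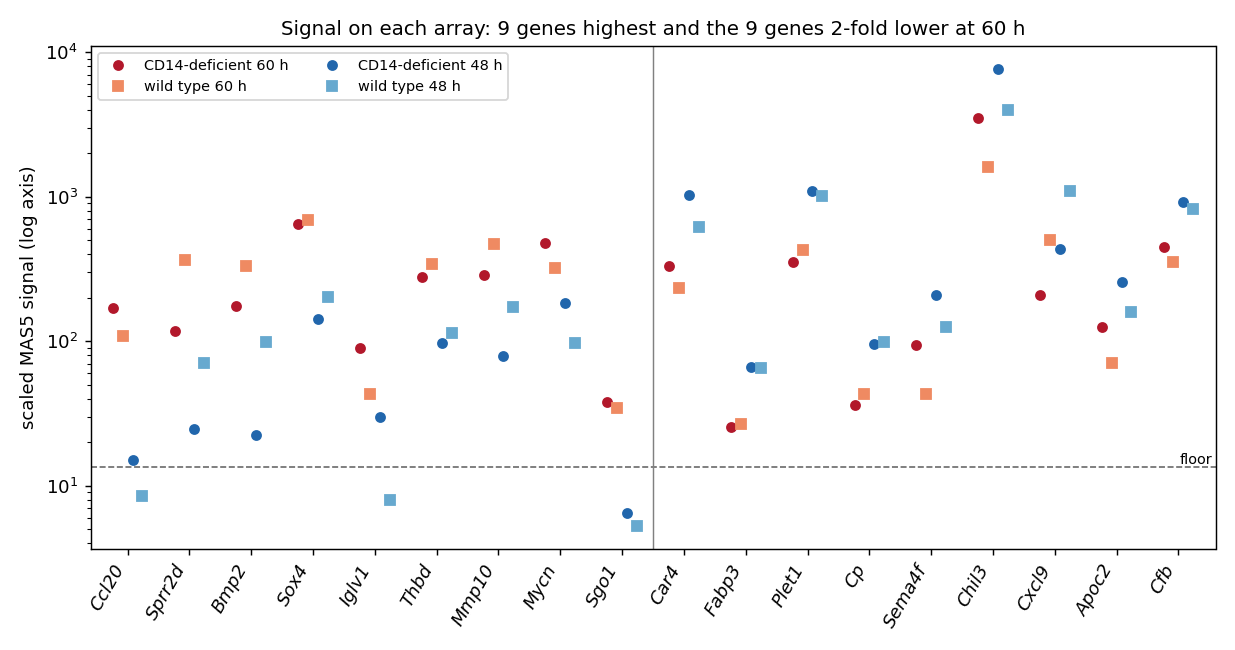
Scaled MAS5 signal (log axis) on the 4 LPS plus thapsigargin arrays for the 9 genes with the largest increase in both genotypes (left of the line) and the 9 genes at least 2-fold lower in both (right of it), with circles for CD14-deficient and squares for wild-type cells, red and orange at 60 h and blue at 48 h. The dashed line is the floor of 13.4, and the 48 h points of Sgo1 and the wild-type 48 h points of Ccl20 and Iglv1 lie under it.

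On the lower side, Car4, a membrane-bound carbonic anhydrase, had the largest decrease shared by the genotypes. Its signal was 329.6 at 60 h against 1021 at 48 h in CD14-deficient cells, and 232 at 60 h against 619 at 48 h in wild-type cells. The 60 h arrays were both under the 48 h arrays, and its log2 shift was −1.63 in CD14-deficient cells and −1.42 in wild-type cells. Plet1, a surface protein, had 354 at 60 h against 1090.2 at 48 h in CD14-deficient cells, and 429 at 60 h against 1006 at 48 h in wild-type cells. It likewise did not overlap between times, and its shift was −1.62 in CD14-deficient cells and −1.23 in wild-type cells. Another Plet1 probe set, too dim to pass the filter, moved the other way, with 1.695 in CD14-deficient cells and 0.70 in wild-type cells. In the unstimulated cells Car4 was at 2929 (CD14-deficient) and 1630 (wild type), and Plet1 at 9290.2 (CD14-deficient) and 8218 (wild type).

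Carriers and cofactors of lipids and metals were a second set. Fabp3, a fatty acid-binding protein, had 25.7 at 60 h against 66.1 at 48 h in CD14-deficient cells, and 27 at 60 h against 65.3 at 48 h in wild-type cells. These 4 signals are under the pooled median of 99.2, though both 60 h arrays were under both 48 h arrays. Apoc2, the cofactor of lipoprotein lipase, had 125 at 60 h against 255 at 48 h in CD14-deficient cells, and 71.2 at 60 h against 159 at 48 h in wild-type cells. Its times did not overlap either. Log2 shifts were −1.36 in CD14-deficient cells and −1.28 in wild-type cells for Fabp3, and −1.04 in CD14-deficient cells and −1.16 in wild-type cells for Apoc2. Ceruloplasmin, or Cp, the copper-carrying ferroxidase, had shifts of −1.42 in CD14-deficient cells and −1.21 in wild-type cells on the probe set used. Another Cp probe set above the filter had −0.50 in CD14-deficient cells and 0.0085 in wild-type cells.

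Of the immune genes, Cxcl9, a chemokine induced by interferon-gamma that binds CXCR3, had 208 at 60 h against 435 at 48 h in CD14-deficient cells, and 499 at 60 h against 1091 at 48 h in wild-type cells. Each genotype was lower at 60 h, while wild-type cells at 60 h stayed above CD14-deficient cells at 48 h. Cfb, complement factor B, had 452 at 60 h against 914 at 48 h in CD14-deficient cells, and 353 at 60 h against 829 at 48 h in wild-type cells. Both of its 60 h signals were under both at 48 h. Log2 shifts were −1.07 in CD14-deficient cells and −1.13 in wild-type cells for Cxcl9, and −1.01 in CD14-deficient cells and −1.23 in wild-type cells for Cfb. Sema4f, a semaphorin, completed the 9 with −1.14 in CD14-deficient cells and −1.55 in wild-type cells.

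Just inside the 2-fold limit stood Csf3 and Gask1b on the higher side and Cfb and Apoc2 on the lower side. Just outside it stood Ogt, which puts N-acetylglucosamine on nuclear and cytosolic proteins, with 1.16 in CD14-deficient cells and 0.99 in wild-type cells, and BC048403 with 0.99 in CD14-deficient cells and 1.09 in wild-type cells. On the lower side these were Ms4a8a with −0.98 in CD14-deficient cells and −1.24 in wild-type cells, and Aqp9, a channel for water and glycerol, with −0.97 in CD14-deficient cells and −1.09 in wild-type cells. Next in order of decrease came Sp100 of the nuclear bodies (−0.98 ± 0.11, mean log2 shift and SE), Slc27a3 of the fatty acid transporter family (−0.97 ± 0.16) and the neuropeptide gene Gal (−1.20 ± 0.19). Spic, a factor of red pulp macrophages, followed with −1.18 ± 0.21, then the desaturase gene Fads2 with −0.92 ± 0.16 and the kallikrein gene Klk1b1 with −1.01 ± 0.10. Isg20, an interferon-induced exonuclease, had −0.90 ± 0.074, Derl3 −0.92 ± 0.14 and Lrp8, a receptor of the LDL receptor family, −0.96 ± 0.17. None of these passed limma, with adjusted p-values between 0.0543 and 0.0591.

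Of the 27 higher genes, 13 were above the pooled median signal on all 4 arrays and 3 were below it on all 4, and of the 9 lower genes 5 were above and 1 was below. The array carries 36 further probe sets for 15 of these 36 genes, 17 of them bright enough to pass the filter. Of the 17, 15 moved the same way in both genotypes and 4 were 2-fold apart in both. The exceptions were the Cp probe set above and 1 of 4 for Sfpq, which was lower at 60 h, at −0.19 in CD14-deficient cells and −0.43 in wild-type cells. All 36 genes kept the sign of their mean shift in each processing alternative that gave them a value, but not always the size. With the mean of all probe sets of a gene, the mean shift was −0.113 in place of −1.43 for Plet1, 0.44 in place of 1.56 for Mycn, 0.45 in place of 1.44 for Sfpq, 0.57 in place of 1.18 for Runx1 and 0.96 in place of 1.97 for Sox4. The mean shift was likewise 0.67 in place of 1.21 for Galnt7, 0.70 in place of 1.11 for Cav2 and 0.93 in place of 1.41 for Cyp1b1. With the pseudocount of 32 it was 1.71 in place of 2.36 for Bmp2, 1.68 in place of 2.31 for Sprr2d, 0.94 in place of 1.63 for Iglv1 and 0.77 in place of 1.37 for Pcdh7.

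Genes of protein folding in the ER were mostly lower at 60 h than at 48 h in both genotypes. Of 29 unfolded protein response and ER folding genes tested, 23 were lower and 2 higher in both, with a median log2 shift of −0.251, against 0.0495 over all genes. Of the 29, 18 lie in the brightest class, where 49.6% of genes were lower in both. None passed limma, and 18 were lower at an unadjusted p under 0.05, against 11.9% of all genes. Without scaling the counts were 13 lower and 11 higher, with a median of 0.0032 against 0.304 over all genes, and quantile normalization gave 22 lower and 2 higher.

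Derl3, which pulls misfolded proteins out of the ER for destruction, had 149 at 60 h against 269 at 48 h in CD14-deficient cells, and 175 at 60 h against 343 at 48 h in wild-type cells. Sdf2l1, a partner of ER chaperones, had 2525 at 60 h against 4248 at 48 h in CD14-deficient cells, and 3824 at 60 h against 6364 at 48 h in wild-type cells. Creld2, another ER stress-induced protein, had 1606 at 60 h against 2453 at 48 h in CD14-deficient cells, and 2035 at 60 h against 2929 at 48 h in wild-type cells. For each of the 3, both 60 h arrays were under both 48 h arrays. Log2 shifts were −0.86 in CD14-deficient cells and −0.98 in wild-type cells for Derl3, −0.75 in CD14-deficient cells and −0.74 in wild-type cells for Sdf2l1, and −0.61 in CD14-deficient cells and −0.53 in wild-type cells for Creld2. Hspa5, the main ER chaperone BiP, was at 14081 at 60 h against 17789 at 48 h in CD14-deficient cells, and 15503 at 60 h against 18650.1 at 48 h in wild-type cells. Its times did not overlap, and its shift was −0.34 in CD14-deficient cells and −0.27 in wild-type cells. The sensors and regulators Atf6, Eif2ak3 and Dnajb9 had mean shifts of 0.34 for Atf6, 0.0066 for Eif2ak3 and 0.074 for Dnajb9. Hspa5, these 3 genes, Pdia6, Dnajc3 and Hsp90b1 were named after their values were seen. Ddit3, the stress factor CHOP that the study is known to follow, had 4915 at 60 h against 5108 at 48 h in CD14-deficient cells, and 4816 at 60 h against 5645 at 48 h in wild-type cells, with a mean shift of −0.14 ± 0.068.

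The ER stress response element is the promoter sequence through which ATF6 and XBP1 switch on ER chaperones, so promoters were searched for it as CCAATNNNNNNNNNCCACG on either strand within 250 bases before the gene start. It was present in 9 of 25 ER folding genes with a RefSeq promoter (36%), against 12 of 6161 genes tested (0.195%). The 12 include the 9. Of these 9 genes, 8 were lower at 60 h in both genotypes, beside 23 of the 29 in the whole list (79.3%). A link between the element and the decrease was not tested. Hsp90b1, the exception, was at 7259 at 60 h against 6978 at 48 h in CD14-deficient cells, and 7124 at 60 h against 10000.0 at 48 h in wild-type cells, higher at 60 h in one genotype and lower in the other. The 5 with the largest shared decrease are shown from RefSeq (GRCm38.p6), read on the gene's strand, 5′ to 3′, with 20 bases on each side. Capitals mark the ends of the element, which reads as CCAAT and CCACG in Pdia6, Dnajc3 and Hspa5 and as its reverse complement in Derl3 and Creld2.
Derl3, chr10:75893222-75893280, plus strand: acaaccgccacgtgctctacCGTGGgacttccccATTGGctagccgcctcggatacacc
Creld2, chr15:88819500-88819558, plus strand: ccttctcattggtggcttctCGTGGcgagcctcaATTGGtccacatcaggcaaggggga
Pdia6, chr12:17266471-17266529, plus strand: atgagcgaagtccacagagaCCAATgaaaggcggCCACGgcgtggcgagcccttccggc
Dnajc3, chr14:118937807-118937865, plus strand: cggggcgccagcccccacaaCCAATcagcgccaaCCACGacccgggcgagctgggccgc
Hspa5, chr2:34772005-34772063, plus strand: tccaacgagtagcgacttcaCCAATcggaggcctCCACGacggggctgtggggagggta

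The 5′ end of the element lies 156 bases before the gene start in Derl3, 126 in Creld2, 98 in Pdia6, 105 in Dnajc3 and 65 in Hspa5. Pdia6, a disulfide isomerase, had 3852 at 60 h against 5539.8 at 48 h in CD14-deficient cells, and 5204 at 60 h against 7425 at 48 h in wild-type cells. Dnajc3, a cochaperone of BiP that also restrains the stress kinase PERK, had 2007 at 60 h against 2743 at 48 h in CD14-deficient cells, and 2349 at 60 h against 3092 at 48 h in wild-type cells. The 60 h signal was the lower one within each genotype for these genes, and CD14-deficient cells were dimmer than wild-type cells at both times. A match says only that these letters stand in the promoter.

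MHC class II genes and their loading machinery were also mostly lower at 60 h. Of 18 MHC class II and presentation genes, 16 were lower and 1 was higher in both genotypes, with a median log2 shift of −0.308, against 0.0495 over all genes. Of the 18, 14 lie in the brightest class. None passed limma, and 15 were lower at an unadjusted p under 0.05, against 11.9% of all genes. Quantile normalization gave 16 lower and 0 higher, while without scaling 7 were lower and 6 higher, with a median of −0.054 against 0.304 over all genes. H2-DMb2, a subunit of the peptide loader, had 757 at 60 h against 1396 at 48 h in CD14-deficient cells, and 489 at 60 h against 748 at 48 h in wild-type cells. H2-Ab1, a chain of the class II molecule itself, had 7104 at 60 h against 9822 at 48 h in CD14-deficient cells, and 5942 at 60 h against 8235 at 48 h in wild-type cells. Psmb9, a subunit of the immunoproteasome, had 3958 at 60 h against 5524 at 48 h in CD14-deficient cells, and 4660.3 at 60 h against 6390.1 at 48 h in wild-type cells. Each was lower at 60 h in each genotype, while for H2-DMb2 CD14-deficient cells at 60 h were above wild-type cells at 48 h. Log2 shifts were −0.88 in CD14-deficient cells and −0.61 in wild-type cells for H2-DMb2, −0.47 in CD14-deficient cells and −0.47 in wild-type cells for H2-Ab1, and −0.48 in CD14-deficient cells and −0.46 in wild-type cells for Psmb9.

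Sterol and fatty acid synthesis genes gave 18 lower and 5 higher in both genotypes of 25 tested, with a median log2 shift of −0.303. Only 3 of the 25 lie in the brightest class. None passed limma. At an unadjusted p under 0.05, 11 were lower, against 11.9% of all genes, and 0 higher, against 17.9%. Fdps, which makes farnesyl diphosphate for cholesterol synthesis, had 958 at 60 h against 1630.2 at 48 h in CD14-deficient cells, and 848 at 60 h against 1488 at 48 h in wild-type cells. Scd2, a stearoyl-CoA desaturase, had 1099 at 60 h against 1979 at 48 h in CD14-deficient cells, and 1002 at 60 h against 1605 at 48 h in wild-type cells. Fads2, a desaturase of polyunsaturated fatty acids, had 74.7 at 60 h against 138 at 48 h in CD14-deficient cells, and 73.9 at 60 h against 143 at 48 h in wild-type cells. For all 3, both 60 h arrays were under both 48 h arrays. Log2 shifts were −0.77 in CD14-deficient cells and −0.81 in wild-type cells for Fdps, and −0.85 in CD14-deficient cells and −0.68 in wild-type cells for Scd2. Quantile normalization gave 19 lower and 3 higher. Without scaling 10 were lower and 9 higher, with a median of −0.048 against 0.304 over all genes.

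Of 34 type I interferon response genes, 18 were lower (52.9%, against 29.3% of all genes) and 5 higher in both genotypes. The median log2 shift was −0.030 in CD14-deficient cells and −0.324 in wild-type cells, and 10 of the 34 lie in the brightest class. None passed limma. Ifit1, an antiviral RNA-binding protein, had 3913 at 60 h against 5076 at 48 h in CD14-deficient cells, and 6315 at 60 h against 9191 at 48 h in wild-type cells. The genotypes differed more than the times here, since wild-type cells at 60 h were above CD14-deficient cells at 48 h. Isg20 had 916 at 60 h against 1669.9 at 48 h in CD14-deficient cells, and 1471 at 60 h against 2794 at 48 h in wild-type cells, with no overlap between the times. Of 26 glycolysis and hypoxia genes, 15 were lower and 6 higher in both, with a median of −0.215 and 12 members in the brightest class. Slc16a3, which exports lactate, had shifts of −0.67 in CD14-deficient cells and −0.63 in wild-type cells, Adm, the peptide hormone adrenomedullin, −0.34 in CD14-deficient cells and −0.93 in wild-type cells, and Pgk1, a glycolytic kinase, −0.31 in CD14-deficient cells and −0.38 in wild-type cells. Without scaling the balance turned in both lists, with 5 lower and 12 higher interferon genes and 7 lower and 12 higher glycolysis genes. Of 31 lysosomal genes 18 were lower (58.1%) and 8 higher, and of 29 cytosolic ribosomal protein genes 17 were lower (58.6%) and 5 higher. In the brightest class lie 23 of the 31 and 25 of the 29, beside 49.6% of all genes of that class lower in both. Quantile normalization gave 13 lower and 12 higher lysosomal genes and 2 lower and 17 higher ribosomal genes. Without scaling 2 lysosomal genes were lower and 25 higher, and 0 ribosomal genes were lower and 29 higher.

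Macrophage markers were followed because marrow cultures can hold macrophages. Of 14 tested, 10 were lower and 0 higher at 60 h in both genotypes, with a median log2 shift of −0.207, and their summed signal was 44632 (CD14-deficient) and 45668 (wild type) at 60 h, against 50185 (CD14-deficient) and 54079 (wild type) at 48 h. Over all genes 29.3% were lower in both, and 49.6% in the brightest class, where 6 of the 14 lie. Without scaling 2 of the macrophage markers were lower and 5 higher. Fcgr1, the high-affinity IgG receptor, had 617 at 60 h against 814 at 48 h in CD14-deficient cells, and 519 at 60 h against 917 at 48 h in wild-type cells. Cd68, a lysosomal glycoprotein, had 5105 at 60 h against 6421 at 48 h in CD14-deficient cells, and 5200.0 at 60 h against 6772 at 48 h in wild-type cells. For both, the 60 h arrays were under the 48 h arrays. Log2 shifts were −0.40 in CD14-deficient cells and −0.82 in wild-type cells for Fcgr1, −0.33 in CD14-deficient cells and −0.38 in wild-type cells for Cd68, and −0.21 in CD14-deficient cells and −0.26 in wild-type cells for Lyz2, a lysozyme. In these mixed RNA samples, fewer cells of a type and less RNA per cell cannot be told apart. The part of the macrophage markers in the shifts of Chil3, Spic and the lysosomal and antigen presentation genes was not tested. Of 13 dendritic cell markers, 5 were higher and 4 lower in both genotypes. Irf4, a factor of dendritic cell maturation that is also induced by calcium, had 1168 at 60 h against 548 at 48 h in CD14-deficient cells, and 1013 at 60 h against 622 at 48 h in wild-type cells. Its times did not overlap. Sirpa, an inhibitory receptor, had shifts of 0.46 in CD14-deficient cells and 0.40 in wild-type cells, and Clec10a, a lectin, 0.52 in CD14-deficient cells and 0.93 in wild-type cells. Those lower in both were Batf3, a factor of cross-presenting dendritic cells, with −0.64 in CD14-deficient cells and −0.60 in wild-type cells, Irf8, a further dendritic cell factor, with −0.27 in CD14-deficient cells and −0.19 in wild-type cells, Cd24a with −0.073 in CD14-deficient cells and −0.30 in wild-type cells, and Itgax with −0.39 in CD14-deficient cells and −0.39 in wild-type cells.

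**Figure D4:**
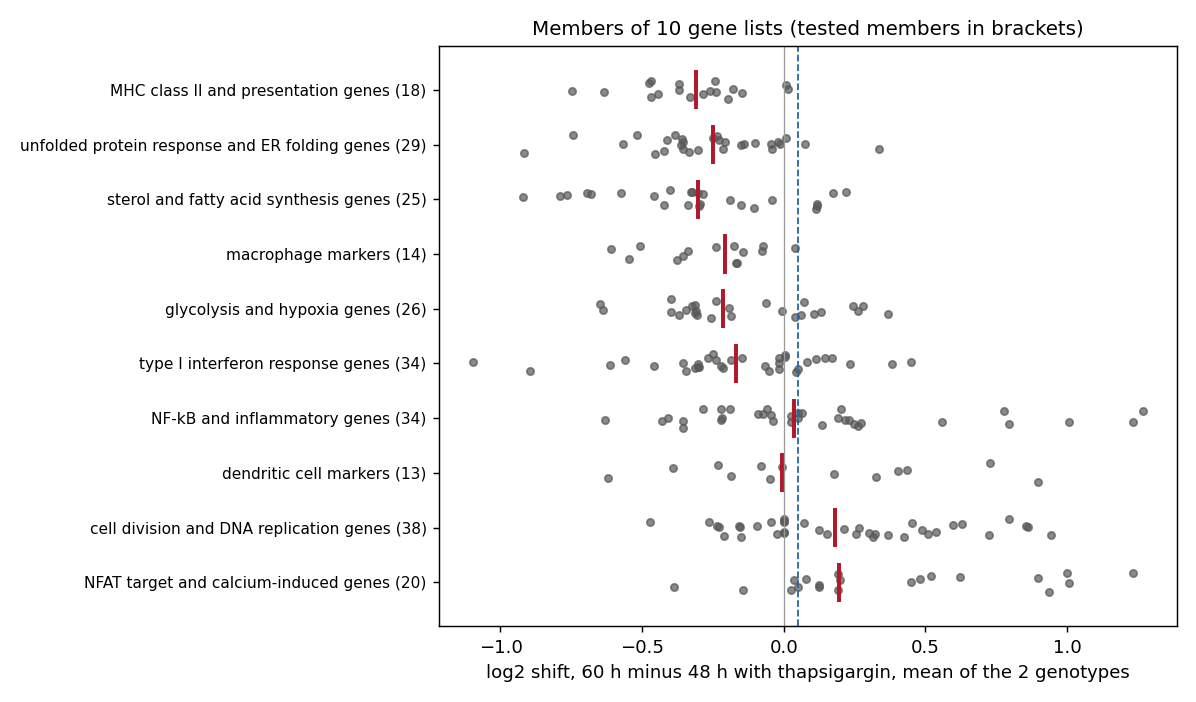
Each point is a tested member of 1 of 10 gene lists, placed by its log2 shift (60 h minus 48 h, LPS plus thapsigargin) averaged over the genotypes, with the list median as a red bar. The dashed line is the median of all 7474 genes at 0.0495, and medians run from −0.308 for MHC class II and presentation genes to 0.195 for NFAT target and calcium-induced genes. Without scaling the macrophage, interferon and glycolysis lists had more genes higher than lower.

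Calcium-induced genes were more often higher than lower at 60 h. Of 20 NFAT target and calcium-induced genes tested, 13 were higher and 2 lower in both genotypes, with a median log2 shift of 0.195, against 0.0495 over all genes. By genotype the list median was 0.322 in CD14-deficient cells and 0.135 in wild-type cells. With LPS alone it was −0.068 in CD14-deficient cells and 0.457 in wild-type cells, so in wild-type cells the rise was larger without thapsigargin. None passed limma. At an unadjusted p under 0.05, 8 were higher, against 17.9% of all genes, and 0 lower, against 11.9%. Egr1, an early growth response factor, had 355 at 60 h against 168 at 48 h in CD14-deficient cells, and 567 at 60 h against 299.7 at 48 h in wild-type cells. Both 60 h arrays were above both 48 h arrays, with shifts of 1.08 in CD14-deficient cells and 0.92 in wild-type cells. With LPS alone the Egr1 shift was −1.14 in CD14-deficient cells and 1.73 in wild-type cells. In unstimulated cells Egr1 was at 6096 (CD14-deficient) and 6198 (wild type), above all 4 thapsigargin arrays. Csf2, which encodes GM-CSF, had 122 at 60 h against 72.5 at 48 h in CD14-deficient cells, and 318 at 60 h against 96.9 at 48 h in wild-type cells, and its times did not overlap. Irf4, given above, had 1.09 in CD14-deficient cells and 0.70 in wild-type cells. Of the genes the study is known to follow, Nr4a1, a nuclear receptor linked to cell death, had 436 at 60 h against 344 at 48 h in CD14-deficient cells, and 352 at 60 h against 228 at 48 h in wild-type cells. Gadd45g, a stress-response protein, had 4154 at 60 h against 3333 at 48 h in CD14-deficient cells, and 3447 at 60 h against 3267 at 48 h in wild-type cells, and Tia1, an RNA-binding protein of stress granules, had 223 at 60 h against 202 at 48 h in CD14-deficient cells, and 241 at 60 h against 223 at 48 h in wild-type cells. Each genotype was higher at 60 h for all 3, by 0.34 in CD14-deficient cells and 0.62 in wild-type cells for Nr4a1, 0.32 in CD14-deficient cells and 0.078 in wild-type cells for Gadd45g, and 0.14 in CD14-deficient cells and 0.11 in wild-type cells for Tia1. None of them passed, with adjusted p-values of 0.11, 0.181 and 0.589 in that order.

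Of 27 genes of the NFAT signalling machinery, 13 were higher in both genotypes (48.1%, close to the 42.8% of all genes) and 5 lower, with a median log2 shift of 0.083, while quantile normalization gave 8 higher and 8 lower. Rcan1, an inhibitor of calcineurin that NFAT itself switches on, had 1297 at 60 h against 539.7 at 48 h in CD14-deficient cells, and 1476 at 60 h against 966 at 48 h in wild-type cells. Its times did not overlap, and its shift was 1.26 in CD14-deficient cells and 0.61 in wild-type cells. Camk2d, a calcium-dependent kinase, had 0.66 in CD14-deficient cells and 1.36 in wild-type cells, and Dyrk1a, a kinase that sends NFAT out of the nucleus, 0.29 in CD14-deficient cells and 0.37 in wild-type cells. The NFAT core letters GGAAA occurred within 250 bases before the start, on either strand, in 19 of 22 higher genes with a promoter (86.4%) and 6 of 8 lower ones (75%), against 59.4% of all genes tested. An AP-1 site, TGANTCA, occurred in 4 of the 22 (18.2%) and 2 of the 8 (25%), against 5.71%. Such short matches are common and describe letters only.

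Inflammatory genes went both ways. Of 34 NF-kB and inflammatory genes, 15 were higher and 12 lower in both genotypes, with a median log2 shift of 0.037. Besides Csf3 and Csf2, Cxcl5, a neutrophil chemokine, had 187 at 60 h against 104 at 48 h in CD14-deficient cells, and 199.7 at 60 h against 119 at 48 h in wild-type cells. The times did not overlap, with shifts of 0.85 in CD14-deficient cells and 0.74 in wild-type cells. Among 17 matrix and metalloprotease genes, 6 were higher and 6 lower. Serpinb2, an inhibitor of plasminogen activators, had 4023 at 60 h against 1130.5 at 48 h in CD14-deficient cells, and 5149 at 60 h against 2821 at 48 h in wild-type cells. Both 60 h arrays were above both 48 h arrays, with shifts of 1.83 in CD14-deficient cells and 0.87 in wild-type cells.

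Of 38 cell division and DNA replication genes tested, 21 were higher (55.3%) and 4 lower in both genotypes, with a median log2 shift of 0.182. In the dimmest class lie 23 of the 38, and 50.4% of all genes of that class were higher in both, a share close to that of the list. Quantile normalization gave 17 higher and 7 lower. Mcm3, a subunit of the replicative helicase, had 381 at 60 h against 220.0 at 48 h in CD14-deficient cells, and 341 at 60 h against 180.5 at 48 h in wild-type cells. Mcm2, another subunit, had 229 at 60 h against 149.8 at 48 h in CD14-deficient cells, and 183 at 60 h against 117 at 48 h in wild-type cells. Cdc20, an activator of the anaphase-promoting complex, had 67.1 at 60 h against 28.5 at 48 h in CD14-deficient cells, and 42.8 at 60 h against 27.3 at 48 h in wild-type cells. For all 3 both 60 h arrays were above both 48 h arrays. In unstimulated cells Mcm3 was at 1614 (CD14-deficient) and 1397 (wild type), above all 4 of these arrays.

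Apoptosis genes are the subject of the series. Of the caspase, proapoptotic, survival and p53 lists, 0 genes were 1.5-fold apart in one direction in both genotypes. Over all genes only 3.04% were 1.5-fold higher and 0.816% lower in both, so few would fall in lists of this size. Of 17 caspase and execution genes, 8 were higher and 4 lower in both genotypes, with a median log2 shift of 0.068. Htra2, a mitochondrial protease released in apoptosis, had 705 at 60 h against 437 at 48 h in CD14-deficient cells, and 941 at 60 h against 654 at 48 h in wild-type cells. Nlrp3, the inflammasome sensor, had shifts of 0.70 in CD14-deficient cells and 0.38 in wild-type cells, and Dffb, the caspase-activated nuclease, 0.31 in CD14-deficient cells and 0.45 in wild-type cells. Of 8 proapoptotic Bcl2 family genes, 1 was higher and 3 were lower. Bcl2l11, which encodes the killer protein Bim, had 924 at 60 h against 1733 at 48 h in CD14-deficient cells, and 1050.3 at 60 h against 1415 at 48 h in wild-type cells. Its 60 h signals were under both 48 h signals, with shifts of −0.91 in CD14-deficient cells and −0.43 in wild-type cells. Of 14 survival genes 6 were higher and 5 lower, and of 23 p53 target and damage genes 10 were higher and 5 lower. Sesn2, a stress-induced sestrin, had shifts of 0.43 in CD14-deficient cells and 0.42 in wild-type cells. No gene of these 4 lists passed limma, where only 2 of all 7474 genes did.

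The arrays with LPS alone, which share no array with the 4 above, gave a second reading of the 12 h step. Of the 27 genes 2-fold higher with thapsigargin, 19 were also higher at 60 h in CD14-deficient cells with LPS alone (70.4%, against 47.4% of all genes) and 26 in wild-type cells (96.3%, against 58.5%). Of the 9 lower genes, 2 were lower in CD14-deficient cells (22.2%, against 52.5% of all genes) and 9 in wild-type cells (100%, against 41.1%). The 9 had a median log2 shift with LPS alone of 1.14 in CD14-deficient cells and −1.28 in wild-type cells. In CD14-deficient cells Plet1 had −1.62 with thapsigargin and 2.43 with LPS alone, and Cp had −1.42 with thapsigargin and 2.11 with LPS alone. The genotypes disagreed with LPS alone: 37.7% of all genes moved the same way in both, and 135 were 2-fold apart in opposite directions. A pair of these arrays stood apart in their 18S ribosomal RNA control probe sets and had the lowest yields of labelled cRNA. The wild-type 60 h array had 18S signals of 216.8 and 395.8 and 19 µg of cRNA, and the CD14-deficient 48 h array had 18S signals of 114.4 and 269.5 and 15 µg. With thapsigargin the yields were 20.01 µg (CD14-deficient) and 37.8 µg (wild type) at 60 h, and 23.4 µg (CD14-deficient) and 30.3 µg (wild type) at 48 h. Itgax with LPS alone was at 6941 at 60 h and 891.8 at 48 h in CD14-deficient cells, against 7838 in unstimulated CD14-deficient cells. In wild-type cells it went the other way, at 1002 at 60 h and 2921 at 48 h. The part of these array differences in the disagreement was not tested.

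**Figure D5:**
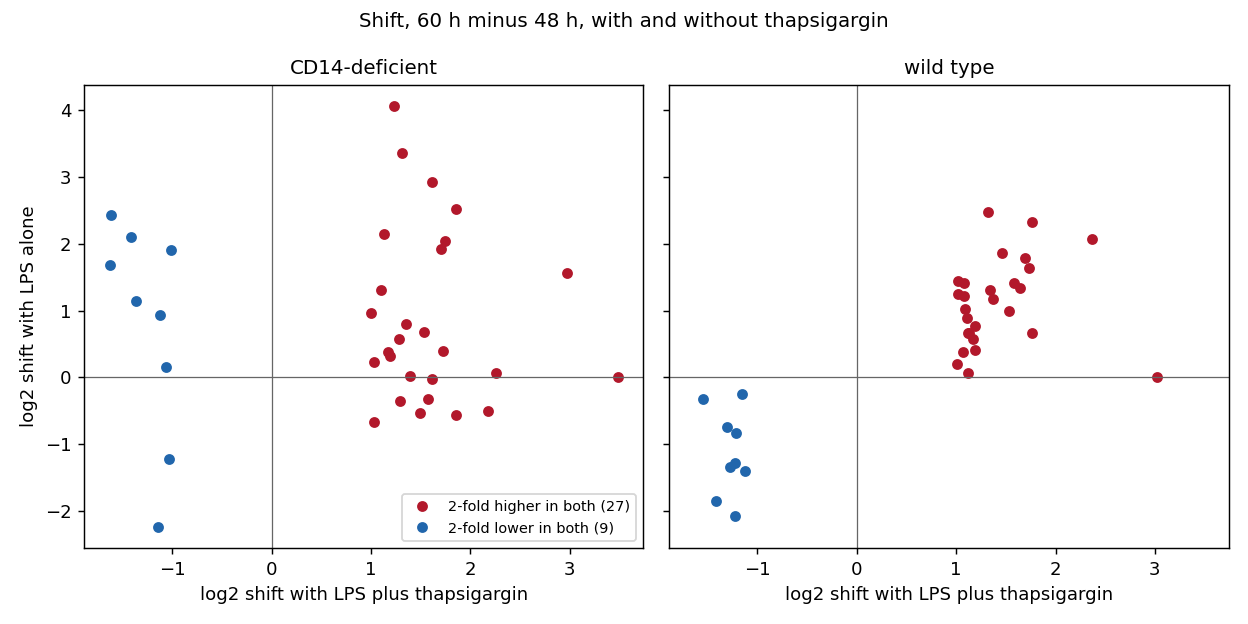
Log2 shift (60 h minus 48 h) with LPS plus thapsigargin on the x axis and with LPS alone on the y axis for the 36 genes at least 2-fold apart in both genotypes with thapsigargin, in CD14-deficient cells (left panel) and wild-type cells (right panel). In wild-type cells 26 of 27 higher and 9 of 9 lower genes moved the same way with LPS alone, and in CD14-deficient cells 19 of 27 and 2 of 9 did.

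Whether the shift with thapsigargin differed from that with LPS alone was tested gene by gene over the 8 stimulated arrays. By limma 0 of 7474 genes (0%) passed, the smallest adjusted p was 0.999, and 64 had an unadjusted p under 0.05. The fit takes each shift as shared by the genotypes, so its 2 residual degrees of freedom measure their disagreement. Across genes the difference between the genotypes' shifts had an SD of 1.1 with LPS alone and 0.339 with thapsigargin. The large adjusted p therefore does not show that the shifts with and without thapsigargin were alike. The difference was 3.25 ± 0.50 (SE) for Ccl20, the largest among the 10 genes with the smallest p. Both LPS-only pairs and the wild-type thapsigargin array of 48 h were at the floor. Both LPS-only shifts of Ccl20 are thus 0 by the floor, and its difference, SE and place among the 10 depend on the floor. Ptger2, a prostaglandin E2 receptor, had log2 shifts of 0.39 in CD14-deficient cells and 0.18 in wild-type cells with thapsigargin, against 1.57 in CD14-deficient cells and 1.62 in wild-type cells with LPS alone. Dusp14, a MAP kinase phosphatase, had −0.15 in CD14-deficient cells and −0.046 in wild-type cells with thapsigargin, against −1.32 in CD14-deficient cells and −1.33 in wild-type cells with LPS alone. Serpinb9b, a relative of the granzyme B inhibitor, had 0.70 in CD14-deficient cells and 0.59 in wild-type cells with thapsigargin, against −0.50 in CD14-deficient cells and −0.43 in wild-type cells with LPS alone. Galnt7 had 1.29 in CD14-deficient cells and 1.12 in wild-type cells with thapsigargin, against −0.35 in CD14-deficient cells and 0.065 in wild-type cells with LPS alone. These are from the probe set used. Other Galnt7 probe sets above the filter had smaller thapsigargin shifts, 0.20 and 0.48 in CD14-deficient cells and 0.44 and 0.50 in wild-type cells. Notch1, a receptor of cell fate, had 0.20 in CD14-deficient cells and 0.48 in wild-type cells with thapsigargin, against 1.82 in CD14-deficient cells and 1.30 in wild-type cells with LPS alone. Without 1 LPS-only array, the shift with LPS alone rests on the pair of 1 genotype, and its disagreement between genotypes is no longer measured. Counts from such fits are given with the processing alternatives below.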

How the data were processed

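The deposited intensity of each probe set was a signal from MAS5, per the submitters' processing notes, and the values are linear. For MAS5, neither version nor scaling target is given in the sources used here. Of 22690 probe sets, 64 controls, 691 with several gene symbols and 1619 with none were left out of the gene tests. As deposited, the arrays had trimmed means (2%) between 443.8 and 553.3, which is 1.247-fold apart, so each array was multiplied to a trimmed mean of 509.1. Signals under the pooled 25th percentile, 13.4, were set to that floor before log2. Each gene was represented by the probe set of highest mean signal, and 7474 of 12393 genes exceeded the pooled median, 99.2, on at least 2 arrays.

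The 4 LPS plus thapsigargin arrays were fitted in limma 3.58.1 (R 4.3.3) with genotype as a block and time as the tested term, with eBayes and an intensity trend (1 residual degree of freedom, prior 4.05). P-values were two-sided and Benjamini-Hochberg adjusted over 7474 genes. The difference between the shifts with thapsigargin and with LPS alone was tested on the 8 stimulated arrays. Both fits were run on simulated data with independent noise on each array, as a check for bias in the fitted shifts. Such data cannot represent the spread between cultures or mice. The spread between cultures or mice enters no p-value, and precision is limited by having so few arrays.

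The members and gene lists were chosen with earlier results of these data known. Genes named were drawn, with exceptions stated, from the 20 higher and 20 lower with the largest smaller-of-2 shift, the 3 leading members of each list, the 2 genes just inside and outside the 2-fold limit on each side, the 10 with the smallest p for the difference, 4 genes the study followed and Cd14. Promoter sequences are RefSeq's (GRCm38.p6) and were matched by symbol. Alternatives changed the scaling, floor, filter, probe set, variance moderation and arrays fitted.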

Additional observations from a re-analysis of the deposited data

Results flagged for a closer look

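For 13 of the 138 named genes, both genotypes moved one way between 48 and 60 h with thapsigargin and the opposite way with LPS alone. The share of all tested genes with this pattern was not counted, so the 13 cannot be set against it. Aqp9, Mmp9, Wfdc21, Tcl1b3 and Serpinb9b were named for a small p for this very difference, which favours opposite movement. None of the differences passed limma over all genes (adjusted p = 0.999), so they are not shown to differ, and some rest on LPS-only shifts close to 0. Given as the shift with thapsigargin minus that with LPS alone, on the log2 scale with its SE, Aqp9 was at −1.68 ± 0.36, the ER genes Derl3 at −1.21 ± 0.38 and Creld2 at −0.91 ± 0.32, and the stress-response gene Nupr1 at −0.93 ± 0.27. The lactate exporter Slc16a3 was at −1.17 ± 0.43, Yars, a tRNA synthetase, at −0.71 ± 0.37, and the neutrophil granule gene Camp at −0.63 ± 0.38. Mmp9 was at −2.03 ± 0.50, with its CD14-deficient thapsigargin array of 60 h set to the floor (8.67 before), so that its size depends on the floor, and Wfdc21 at −1.49 ± 0.36. On the higher side with thapsigargin were Tcl1b3 at 1.48 ± 0.39, Clec10a at 1.15 ± 0.49, Serpinb9b at 1.11 ± 0.25 and Ei24 at 0.47 ± 0.22. With thapsigargin Derl3 had a signal of 149 at 60 h against 269 at 48 h in CD14-deficient cells, and 175 at 60 h against 343 at 48 h in wild-type cells. With LPS alone it had 62.2 at 60 h against 59.6 at 48 h in CD14-deficient cells, and 49.6 at 60 h against 34.6 at 48 h in wild-type cells.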

How the results depend on the processing

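The number of genes called moved most. In place of 2, limma called 2872 without scaling, 187 with quantile normalization (84 higher, 103 lower), 1288 without a floor, 1611 with a pseudocount of 32, 1039 with genes above the pooled median on all 4 arrays, 433 with the mean of all probe sets, and 0 without a filter, without the intensity trend, with 8 arrays (206 at an unadjusted p under 0.05) or with 10 arrays (210). Leaving out 1 of 8 stimulated arrays in turn gave 0 to 5 in the 8-array fit (5 without the CD14-deficient LPS array of 48 h), in which a lone array is assumed to vary like the others. Genes 2-fold higher in both, 27, were 104 without scaling, 14 with the pseudocount, 46 without a filter, 13 with the strict filter, 17 with the mean of probe sets and 227 at 1.5-fold. Genes 2-fold lower in both, 9, were 1 without scaling, 16 with quantile normalization, 3 with the pseudocount, 17 without a filter, 5 with the strict filter and 61 at 1.5-fold. Genes apart in opposite directions, 1, were 3 with quantile normalization, 5 without a floor, 0 with the pseudocount or the strict filter and 12 without a filter. Genes called for the difference between the shifts with thapsigargin and with LPS alone stayed at 0 under each change of processing and ran from 0 to 2601 when 1 array was left out (2590 without the wild-type LPS array of 48 h and 2601 without that of 60 h). Each fit with 1 array left out had 1 residual degree of freedom. Without 1 LPS-only array, the shift with LPS alone came from the pair of the other genotype only. The residual was then the disagreement of the genotypes about the shift with thapsigargin. Counts from those fits therefore take no account of how far the genotypes disagreed with LPS alone. The cause of the other moves was not tested. Mean shifts close to 0 changed sign in some genes that did not pass: without scaling Ddit3 was at 0.11, Dusp14 at 0.16 and Lyz2 at 0.016, and with quantile normalization the mean shift of Tia1 was just under 0. Among the lists described, the balance of higher and lower genes turned in the ribosomal, lysosomal, interferon, glycolysis, macrophage, ATF4, proapoptotic, neutrophil and housekeeping lists without scaling, and in the ribosomal, housekeeping and dendritic cell marker lists with quantile normalization. Ccl20 and Chil3 did not pass without a filter, without the intensity trend or with 8 or 10 arrays. Their mean shifts ran from 1.95 (pseudocount) to 3.59 (no floor) for Ccl20 and from −1.21 to −0.96 (no scaling) for Chil3. Signals near the floor do not separate low levels from background, which limits Ccl20, Iglv1, Sgo1 and Pcdh7 most.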

Other observations

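Heat shock genes were not described above. Of 13 tested, 6 were higher and 3 lower at 60 h with thapsigargin in both genotypes. The inducible chaperone gene Hspa1b had 2359.6 at 60 h against 779.5 at 48 h in CD14-deficient cells, and 1678 at 60 h against 928 at 48 h in wild-type cells. Its neighbour Hspa1a, a near-identical copy that the probe sets may not tell apart, had 1679.6 at 60 h against 553 at 48 h in CD14-deficient cells, and 961 at 60 h against 686 at 48 h in wild-type cells. Log2 shifts were 1.60 in CD14-deficient cells and 0.85 in wild-type cells for Hspa1b, and 1.60 in CD14-deficient cells and 0.49 in wild-type cells for Hspa1a. Bag3, their cochaperone, had 0.32 in CD14-deficient cells and 0.29 in wild-type cells.

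Of 34 ATF4 and amino acid response genes, 16 were lower and 10 higher in both genotypes, while without scaling 8 were lower and 21 higher. Nupr1, a chromatin protein induced by stress, had 1319 at 60 h against 1889 at 48 h in CD14-deficient cells, and 1669.8 at 60 h against 2510.3 at 48 h in wild-type cells. Slc7a11, the cystine importer, had log2 shifts of −0.46 in CD14-deficient cells and −0.35 in wild-type cells, and Yars, the tyrosyl-tRNA synthetase, −0.35 in CD14-deficient cells and −0.37 in wild-type cells. Of 11 housekeeping genes, 7 were lower and 4 higher, while without scaling 1 was lower and 9 were higher.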
